A study of Mus musculus with 2 samples.

Results

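Olfactory receptor genes, which carry symbols starting with *Olfr* in the mouse, were counted in single cells of the retina sorted as cones. They have no established role as a family in this tissue. The genes described here were selected on the counts themselves, as the *Olfr* symbols counted in 3 or more of the deposited wells (85 uninjected and 66 GSK-J4-treated), up to a limit of 300 symbols. The count table held 431 *Olfr* rows among 17774 genes, and 334 of them reached 3 wells, so the 300 found in the most wells were kept, with ties broken by symbol. GFP-positive cells were sorted 1 per well from retinae of C57BL/6 mice that carried the *Pde6c* cpfl1 mutation and the Chrnb4.eGFP transgene, in which the *Chrnb4* promoter drives the fluorescent reporter. Both the uninjected and the GSK-J4-treated library had this genotype and were collected at PN24. GSK-J4, an inhibitor of the Jumonji demethylases of H3K27, was given at 10 µM into the vitreous at PN14, 10 days before collection. Each condition was 1 library on 1 plate. The control retinae had no injection, whereas GSK-J4 was injected with DMSO as its vehicle. Effects of the plate, the injection and the vehicle cannot be told apart from one of GSK-J4. Differences between the libraries have no replicate check. The number of animals pooled for a plate was not given in the sources used here.

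Olfactory receptors are G protein-coupled receptors of the sensory neurons of the nose. Each of these neurons is known to express 1 receptor gene, chosen from clusters spread over the chromosomes. The receptor couples to the G protein subunit encoded by *Gnal*, which activates the adenylyl cyclase *Adcy3* and opens the channel built from *Cnga2*, *Cnga4* and *Cngb1*. Their transcripts are rarely detected in most other tissues, so that counts on them in a retinal cell are usually read as low-level background.

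After the filter on genes and wells, 82 uninjected wells with 1113424 counts and 64 GSK-J4-treated wells with 208578 counts were compared, over 15947 genes. Uninjected wells held a median of 8118 counts (860 to 98250), and GSK-J4-treated wells one of 2336 (420 to 15371). Both libraries differed in their cone identity. All 11 cone markers had counts in the uninjected library, where they took 2.59% of the counts (0.358% to 9.81% over wells, with a count in 82 of 82 wells). In the GSK-J4-treated library they took 0.213% (0 to 6.74% over wells, with a count in 14 of 64 wells). *Opn1sw*, *Gngt2*, *Guca1a*, *Cngb3* and *Pde6c* were at 0. The other 6 had counts, led by *Opn1mw* with 304 in 2 wells, *Pde6h* with 92 in 5 and *Arr3* with 39 in 3. The lack of any cone marker count in most of these wells goes against their label of cone photoreceptor. The 10 rod markers took 0.349% of the uninjected and 0.0206% of the GSK-J4-treated counts. Of the 10 markers of olfactory sensory neurons, 9 and 6 had a count, together 0.0118% and 0.0125% of the counts, with wells ranging from 0 to 0.228% and 0 to 0.101%. *Omp*, which marks mature olfactory sensory neurons, had 1 count in each library, and *Gng13* had none.

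A feature of the plates bears on every value below. Uninjected wells that lay in the same row and 6 columns apart, called partner wells here, had like total counts (Spearman's rho 0.90 over 39 pairs of 1 plate), whereas partner wells of the GSK-J4-treated plate did not (rho 0.028 over 22 pairs). Which wells shared a primer, a barcode or a pool was not given in the sources used here, and whether partner wells held separate cells was not tested. Partner wells were also summed into 1 for the median member share of a well and for the log-folds. The other values rest on the wells as deposited.

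All 300 genes are annotated as protein-coding, and they lay on 16 chromosomes, with 70 on chromosome 2, 68 on chromosome 7, 30 on chromosome 9 and 27 on chromosome 11. Start windows of 300 bases were given by RefSeq (GRCm38.p6) for 239 of them. Those of *Olfr66* and *Olfr845*, both among the genes with the most counts, are shown because they are members whose counts piled up in partner wells, as described below. Capitals mark TAATTA, a core letter string of homeodomain sites, and TATAAA, the TATA box string, searched on both strands, where the first run of capitals in *Olfr845* joins TTTATA, the reverse complement of TATAAA, to TAATTA. The windows are chr7:103882192-103882491 on the minus strand and chr9:19338209-19338508 on the plus strand, and both lie inside the gene span of GENCODE vM21, downstream of its first annotated transcript start.
Olfr66: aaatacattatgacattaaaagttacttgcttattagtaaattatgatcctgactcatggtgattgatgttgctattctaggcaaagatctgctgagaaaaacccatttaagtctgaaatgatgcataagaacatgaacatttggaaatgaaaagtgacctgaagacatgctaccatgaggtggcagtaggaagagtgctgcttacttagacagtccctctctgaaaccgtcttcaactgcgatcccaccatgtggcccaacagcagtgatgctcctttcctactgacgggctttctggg
Olfr845: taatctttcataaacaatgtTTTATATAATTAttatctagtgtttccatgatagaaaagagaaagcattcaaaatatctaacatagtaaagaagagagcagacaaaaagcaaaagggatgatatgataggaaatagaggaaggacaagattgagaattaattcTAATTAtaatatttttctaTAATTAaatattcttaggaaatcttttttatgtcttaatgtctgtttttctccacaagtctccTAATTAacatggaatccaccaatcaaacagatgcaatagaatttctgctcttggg
For each string, the member value is the share of the 239 members with it in any of their windows. The value over all genes is a share of the 32851 windows, so the 2 measures differ. TAATTA was found in 18.0% and 5.29%. TATAAA was found in 36.8% and 13.6%. CCCNNGGG, the core of the sites of the EBF factors of olfactory sensory neurons, was found in 1.67% and 13.7%. Base composition was not taken into account. Where the windows of the other members lie relative to their first annotated transcript start is not given here. These shares are therefore not read as a trait of the promoters of the members. The window of *Olfr66* held none of these 3 strings, so the 2 members shown did not share one.

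Member genes took 6435 of the counts in the uninjected library, or 0.578% (95% exact binomial interval 0.564% to 0.592%), and 2634 in the GSK-J4-treated library, or 1.26% (1.22% to 1.31%). The share was 2.19 times as high in the GSK-J4-treated library. These intervals cover counting error only. The number of wells chose the members, but the low end of the family held little of the signal, since all 431 *Olfr* rows had 6595 and 2760 counts. At the limit of the rule, the 54 members found in exactly 3 wells had 3 to 6 counts each, the 34 genes in 3 wells that the order of symbols left out had 3 to 5, and the 65 genes in 2 wells had 2 to 4. A further 28 *Olfr* rows had a count in 1 well and 4 in none. Of the members, 86 had counts in at least 3 wells of both libraries, 110 of the uninjected library alone, 56 of the GSK-J4-treated library alone, and 48 reached 3 wells only by adding the libraries. The same split over all genes is not given here, and the libraries differed in depth.

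No well was free of member counts. In uninjected wells the share lay between 0.0349% and 5.66%, with a median of 0.358% and quartiles of 0.216% and 0.640%. GSK-J4-treated wells lay between 0.141% and 7.24%, with a median of 0.922% and quartiles of 0.646% and 1.30%. The ranges overlapped over most of their length, but 59 of 82 uninjected wells and 4 of 64 GSK-J4-treated wells were under 0.5%. The median well held 25 member counts (1 to 992) in the uninjected and 25.5 (1 to 328) in the GSK-J4-treated library, with upper quartiles of 77.5 and 41.3. The medians were thus alike, and the upper part of the range was higher in the uninjected library, whose totals were higher too. Plate columns 1 to 6 and 7 to 12 had shares of 0.576% and 0.580% on the uninjected plate and of 1.27% and 1.26% on the GSK-J4-treated plate. The total of a well described the number of its member counts (Spearman's rho 0.80 over 82 wells and 0.85 over 64 wells of 1 plate each) but not their share (0.013 and 0.0078). In the uninjected library wells with a higher member share tended to have a lower share of cone marker counts (rho -0.43) and of mitochondrial counts (-0.36), and in the GSK-J4-treated library these values were 0.040 and -0.014. These shares come from the same wells and add up to a fixed total.

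**Figure D1:**
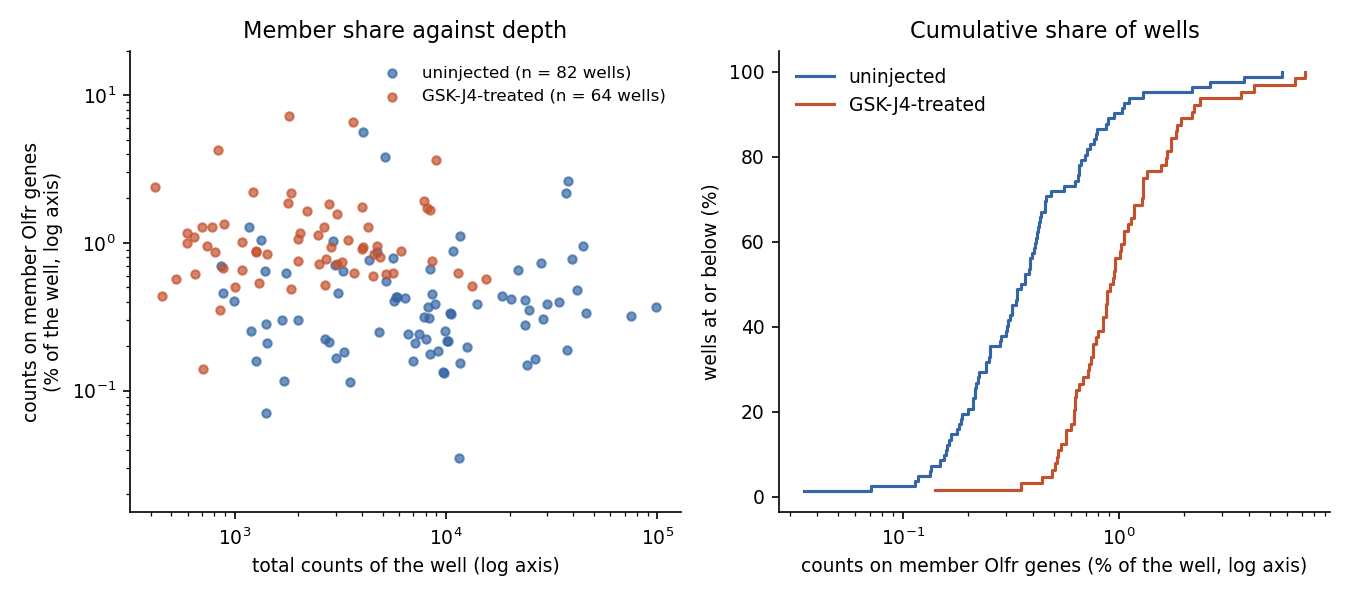
Left, share of counts on the 300 member genes (% of the well, log axis) against the total counts of the well (log axis), 1 point per well. Right, the share of wells at or below each member share. The GSK-J4-treated curve (median 0.922%) lies to the right of the uninjected one (0.358%), and neither library shows a slope with depth.

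The member counts were concentrated on few genes. *Olfr66* alone had 1940 of the 6435 in the uninjected library (30.1%) and 369 of the 2634 in the GSK-J4-treated library. The 8 members with the most counts in each library held 63.9% and 52.4%, and 50% of the counts fell on 4 and 7 genes. At the other end, the median member had 4 counts in 3 wells of the uninjected library and 3 counts in 2 wells of the GSK-J4-treated library. In each library 272 of the 300 members had a count, and 244 had one in both. The same numbers over all genes are not given here. The rule asked for 3 wells over both libraries together, and the libraries differed in depth, so these numbers are not read as a trait of the members. Most entries of a gene in a well were single counts, 1183 of 1701 (69.5%) and 919 of 1180 (77.9%), beside 57.6% and 76.7% over all genes. Entries of 10 or more made up 3.88% and 1.19% of the member entries but held 54.9% and 37.2% of the member counts. Over all genes such entries were more frequent, at 8.55% and 2.99%, and held 69.4% and 49.5% of the counts. The member counts of uninjected wells had a variance 306 times their mean, and those of GSK-J4-treated wells 76.6 times. Among members with at least 5 counts, the largest well held a median of 34.4% (147 members) and 37.5% (87 members), close to the 33.3% and 36.4% over all genes.

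*Olfr66*, on chromosome 7 from 103879443 to 103886252 on the minus strand, was the most counted member. It had 1940 counts (exact Poisson interval 1855 to 2028) in 72 of 82 uninjected wells, ranging from 0 to 795 with a median of 3. In GSK-J4-treated wells it had 369 counts (332 to 409) in 40 of 64 wells, from 0 to 217 with a median of 1. On the uninjected plate wells G02 and G08 held 795 and 685 of these counts and the next well 36, and on the GSK-J4-treated plate well F12 held 217 and the next well 12. The gene thus had a low count in most wells and a high one in very few. The pseudogene *Dnajc19-ps* lies within its span without sharing an exon, and 7.88% of its stretches of 45 bases also occurred in transcripts of other genes.

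*Olfr845*, on chromosome 9 from 19336457 to 19341718, had 485 counts (443 to 530.1) in 63 uninjected wells and 157 (133 to 184) in 24 GSK-J4-treated wells. Its median well was at 1 and 0 counts. Well B01 held 172 and its partner B07 137, whereas the third well held 10. In the GSK-J4-treated library well H01 held 95 and the next well 8. Other members rose above their usual level in the same wells. *Olfr1211* had 16 and 18 counts in B01 and B07 and 8 in H01, with at most 2 in any other uninjected well. *Olfr1294* had 7, 7 and 4 in these 3 wells, of 20 counts in the uninjected and 6 in the GSK-J4-treated library.

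*Olfr1222*, on chromosome 2 from 89122885 to 89133054 had the largest share of its uninjected counts in 2 wells among the 10 members with the most counts (92.8%). It had 403 counts (365 to 444) in 29 uninjected wells, of which D12 held 227, its partner D06 147, and the third well 3. In the GSK-J4-treated library it had 13 counts (6.92 to 22.2) in 2 wells, with 10 of them in H04 and 3 in E06. *Olfr996* followed it, with 42 and 23 counts in D06 and D12 and at most 2 in any other uninjected well, and with 5 of its 7 GSK-J4-treated counts in H04. None of the stretches of 45 bases of *Olfr1222* occurred in transcripts of other genes, while 23.2% of those of *Olfr996* did.

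*Olfr111*, on chromosome 17 from 37508030 to 37532449, had 417 counts (378 to 459) in 41 uninjected wells and 357 (321 to 396) in 45 GSK-J4-treated wells. D07 and its partner D01 held 136 and 73, and the third well 32. In the GSK-J4-treated library 294 counts, or 82.4%, lay in well A08, and no other well had more than 3. *Olfr735*, on chromosome 14 from 50342612 to 50348872, was counted 433 times (393 to 476) in the uninjected and 168 times (144 to 195) in the GSK-J4-treated library. Its first partner wells H02 and H08 held 82 and 59, and C12 and C06, also partners, held 35 and 23. F05 held 87 in the GSK-J4-treated library, and the next well 5. *Olfr329-ps*, on chromosome 11 from 58539801 to 58546422, was counted 185 times (159 to 214) and 127 times (106 to 151.1). Partner wells H11 and H05 held 35 and 23, well C12 held 22, and D06 held 72 in the GSK-J4-treated library. Each of these 3 genes had its highest uninjected counts in wells of 1 row, 6 columns apart, and 1 high well in the GSK-J4-treated library at another position.

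**Figure D2:**
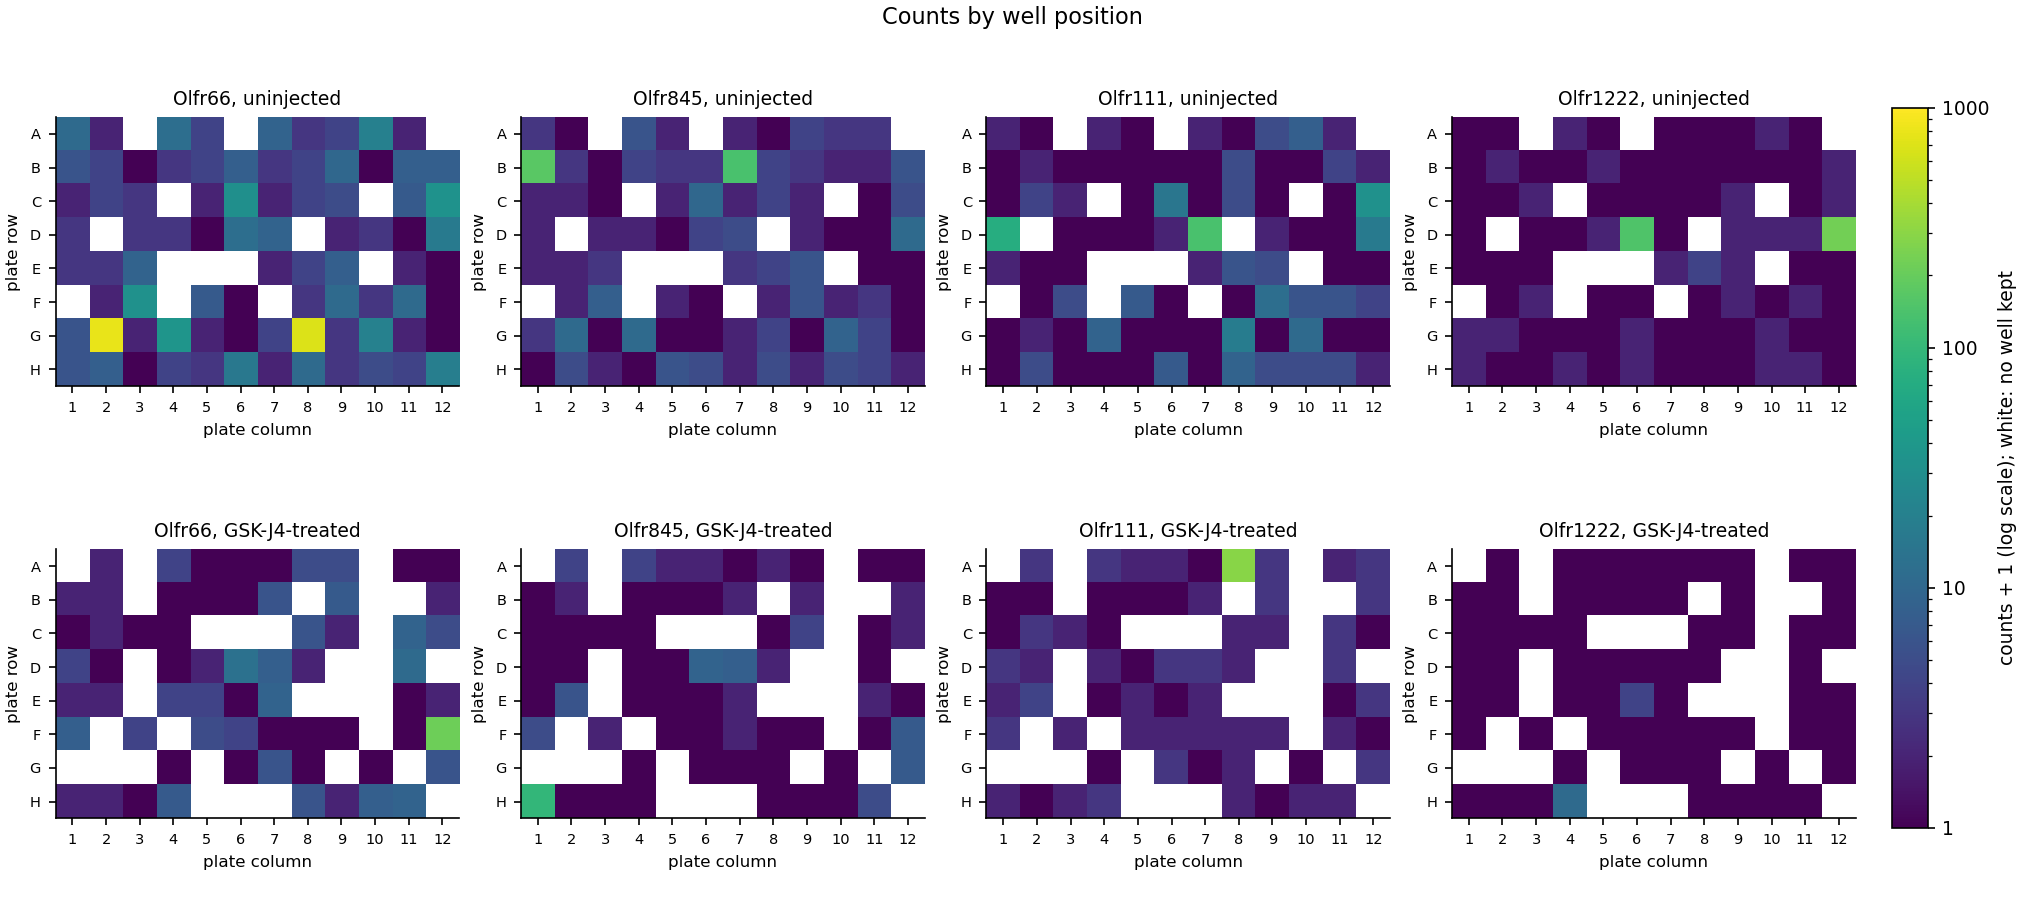
Counts plus 1 (log colour scale) of *Olfr66*, *Olfr845*, *Olfr111* and *Olfr1222* by plate row and column, for the 82 uninjected (top) and 64 GSK-J4-treated (bottom) wells kept, with other positions in white. Each gene has 2 bright uninjected wells in 1 row, 6 columns apart, and 1 brightest GSK-J4-treated well elsewhere.

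Not all abundant members were concentrated. *Olfr1185-ps1* had 132 counts (110 to 157) in 38 uninjected wells, with 18 in the highest, and 52 (38.8 to 68.2) in 31 GSK-J4-treated wells, with 3 in the highest. *Olfr410*, on chromosome 11 from 74330281 to 74338031, had 33 counts in 33 of 64 GSK-J4-treated wells, exactly 1 in each, and 4 counts in 4 uninjected wells. It was the only member with 10 or more counts and no well above 1 in the GSK-J4-treated library, where 29 of all genes had this pattern. In the uninjected library *Olfr411*, with 11 counts in 11 wells, was the only such member, beside 33 of all genes. *Olfr322* and *Olfr145* had fewer counts, 117 and 68 in the uninjected library, with 52.1% and 39.7% of them in 2 partner wells.

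**Figure D3:**
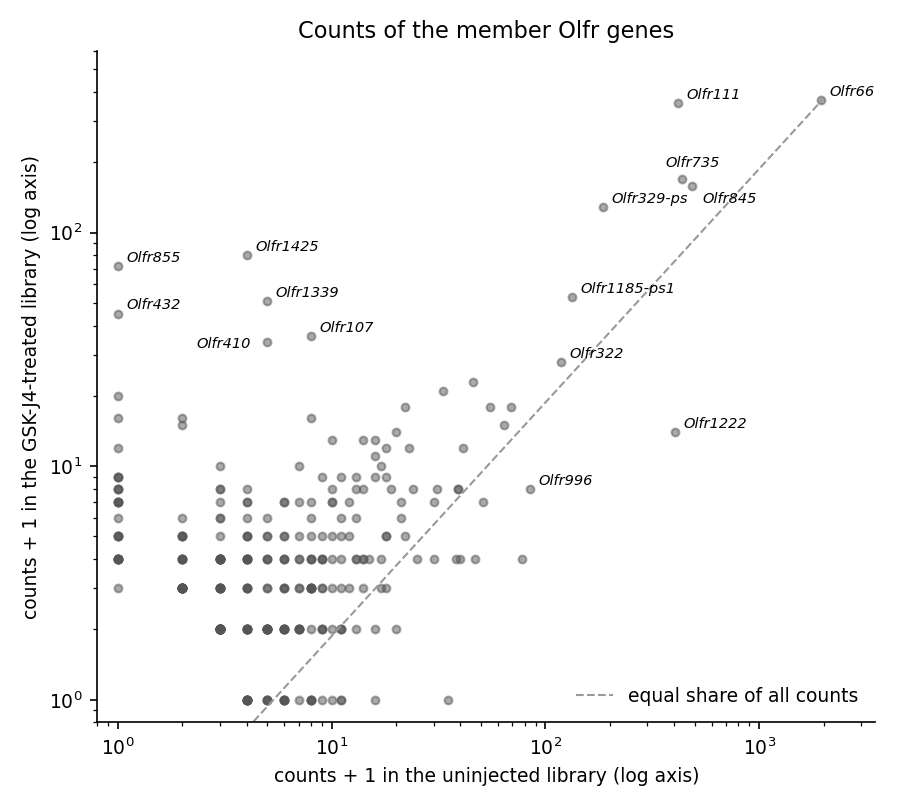
Counts plus 1 of each of the 300 members in the GSK-J4-treated library against the uninjected library (log axes), with the line of equal share of all counts dashed. *Olfr66* lies on the line, *Olfr1222* below it, and *Olfr855*, *Olfr432*, *Olfr1425*, *Olfr1339*, *Olfr410* and *Olfr107* far above it at 0 to 7 uninjected counts.

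The sharing between partner wells was not limited to these genes. Of 53 members with at least 10 uninjected counts and 2 wells above all others, 32 (60.4%) had partner wells as these 2. Here and in the matches below, wells were ranked by raw counts, without regard to their depth. The partners C06 and C12, which led *Olfr295*, *Olfr1218* and *Olfr676*, were the deepest uninjected wells, with 75174 and 98250 counts. The part of depth in such leads was not tested. Among all other genes the same held for 1958 of 6400 (30.6%). On the GSK-J4-treated plate it held for 0 of 13 members and for 22 of 1542 other genes (1.43%). The 32 members had 4763 uninjected counts, of which 3057 (64.2%) lay in their 2 leading wells, equal to 47.5% of all member counts of the library. The second of these wells held 0.44 to 1 times the count of the first, with a median of 0.80, beside 0.75 for the members whose 2 leading wells were not partners.

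Whole member profiles showed the same layout. Profiles were compared between wells by Pearson's r of the log counts per 10000 over the 300 members, as a description over wells of 1 plate. For 37 of 78 uninjected wells with a partner (47.4%) the most similar of all uninjected wells was the partner, and no other offset in row and column gave this for more than 3 wells. The median r was 0.54 between partners (39 pairs, -0.018 to 0.83) and 0.29 between other wells. In the GSK-J4-treated library the best match was the partner for 1 of 44 wells, with a median r of 0.21 between partners and 0.19 between others. Without the 8 members with the most counts, 31 of 77 uninjected wells (40.3%) still matched their partner best, at a median r of 0.32 against -0.0034. With the 77 genes of the comparison families, 11 of 78 did (14.1%), at a median r of 0.82 between partners and 0.70 between other wells. This set holds fewer genes than the members, and *Taar4* and *Krtap26-1* led it with 1001 and 753 uninjected counts. The 14.1% is therefore not a like measure to the 47.4% of the members.

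**Figure D4:**
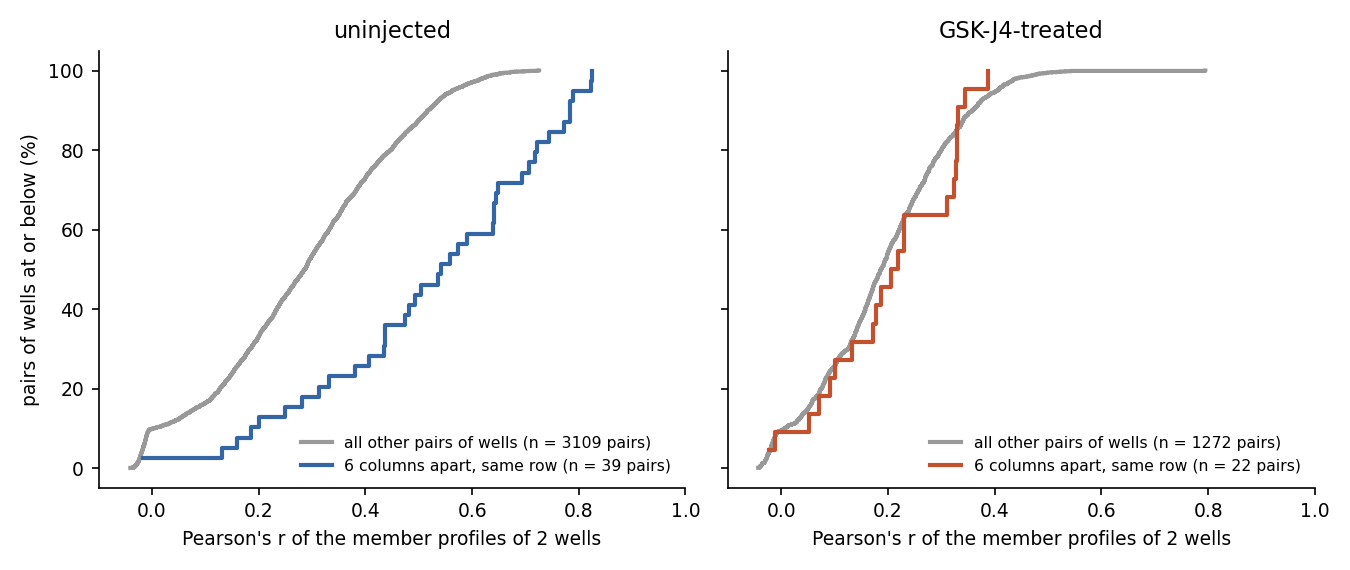
Cumulative share of pairs of wells by Pearson's r of their member profiles, for wells 6 columns apart in a row (colour) and all other pairs (grey). In the uninjected library the partner curve is shifted to higher r (median 0.54 against 0.29), and in the GSK-J4-treated library the curves overlap (0.21 against 0.19).

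Wells also corresponded between the libraries. To read this without the members, 913 genes other than *Olfr* were taken whose 2 leading uninjected wells were partners and which had 1 leading GSK-J4-treated well, each with at least 5 counts in the highest well. For 30 of the 35 pairs with such a gene, at least 3 genes named the same GSK-J4-treated well and no other well was named by as many. Those 30 matches rested on 3 to 95 genes each (median 16.5), and 741 of the 905 genes (81.9%) of these pairs led in the matched well. The 30 pairs matched 29 different GSK-J4-treated wells, and 1 match lay at the same plate position.

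The member genes, which had no part in these matches, followed them. By the limit used for the matches, at least 5 counts in the highest well and none on the total, 28 members were led by an uninjected pair, and 27 of them had a matched GSK-J4-treated well. Among the 18 of these with a single leading GSK-J4-treated well of 3 or more counts, that well was the matched one for 15, and it was another for *Olfr145*, *Olfr676* and *Olfr161*. The 15 included *Olfr66* (G02 and G08 with F12), *Olfr845*, *Olfr1211* and *Olfr1294* (B01 and B07 with H01), *Olfr735* (H02 and H08 with F05), *Olfr111* (D01 and D07 with A08), *Olfr329-ps* (H05 and H11 with D06), *Olfr1222* and *Olfr996* (D06 and D12 with H04) and *Olfr322* (B02 and B08 with F07). Together the 27 members had 1352 counts in the GSK-J4-treated library, and 833 of these (61.6%) lay in their matched wells. For comparison, the median GSK-J4-treated well held 1.12% of that library's counts. The largest well of a member, wherever it lay, held a median of 37.5% of its counts there, among members with at least 5. Of the 833 counts, *Olfr111* gave 294, *Olfr66* 217, *Olfr845* 95, *Olfr735* 87 and *Olfr329-ps* 72, so the sum rests mainly on these genes. *Olfr1346* had all 6 of its GSK-J4-treated counts in the matched well G12, and *Olfr809* and *Olfr164* had 5 of 7 and 3 of 5 there.

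The profile of a pair over all members correlated with that of its matched well at a median r of 0.49 (-0.017 to 0.82 over 30 pairs) and with other GSK-J4-treated wells at 0.24. The matched well was the most similar of the 64 wells for 14 of the 30 pairs. The member share of a pair and of its matched well ran together (Spearman's rho 0.69 over 30 pairs, which share the plates), and it was lowest for B03 and B09, at 0.0953% with 0.871% in F08, and highest for B01 and B07, at 4.62% with 7.24% in H01. Their total counts had a rho of 0.57. The part of barcodes, primers, pooling or exchange of reads between the libraries in these matches was not tested.

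**Figure D5:**
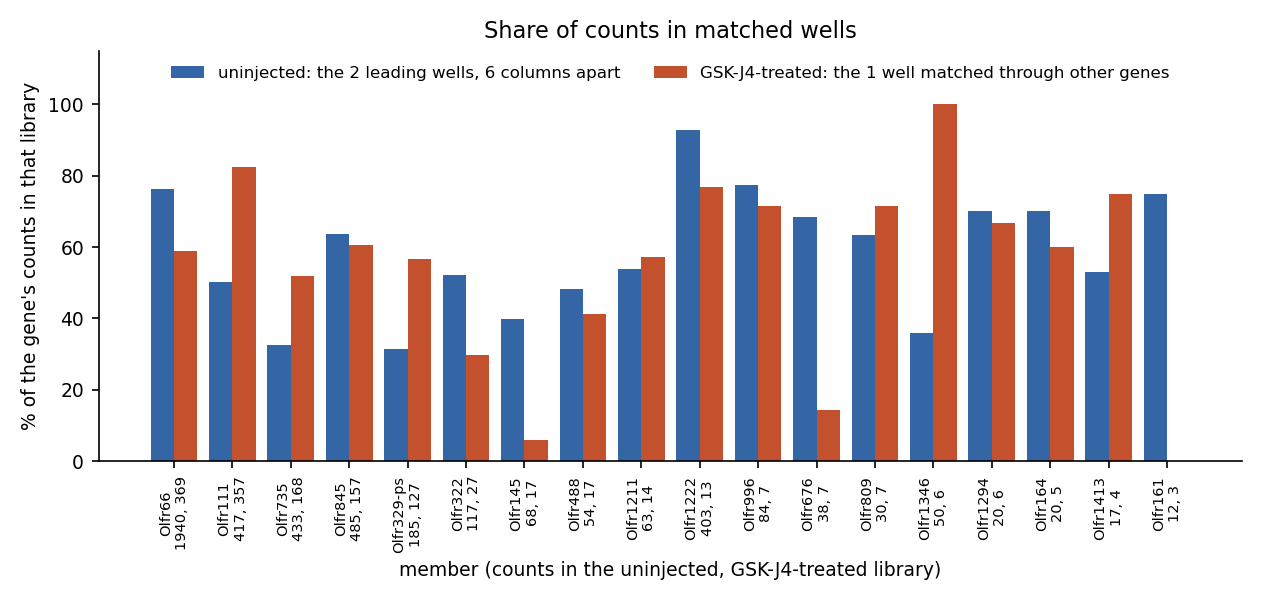
For the 18 members led by an uninjected pair and by a single GSK-J4-treated well of 3 or more counts, the share of the gene's counts (%) in the 2 uninjected partner wells (blue) and in the 1 GSK-J4-treated well matched to that pair through genes other than *Olfr* (red). For *Olfr66*, *Olfr845*, *Olfr1222* and *Olfr111* 58.8% to 82.4% of the GSK-J4-treated counts lay in the matched well, and for *Olfr161* none.

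Between the conditions, the log-fold was taken as the natural log of the mean count per 10000 plus 1 in GSK-J4-treated wells minus that in uninjected wells. It was above 0.3 for 45 members (15%), beside 12.6% of all genes, and below -0.3 for 3 members (1%), beside 11.8% of all genes. With a pseudocount of 1, a gene whose uninjected mean is close to 0 cannot fall below -0.3. The median member had 4 uninjected counts, and *Olfr549*, with 17 and 2 counts, reached only -0.26. The low share of members below -0.3 is therefore not read as a trait of the family. The median was 0.068 over the members and 0.033 over all genes. With median-ratio size factors 14 members were above and 6 below, beside 4.17% and 16.6% of all genes, and after leaving out the 2 highest wells of each member in each library 21 were above and 1 below (7% and 0.333%, beside 7.04% and 9.46% of all genes). Summing partner wells gave 47 and 1, beside 13.04% and 12.13% of all genes. With 1 library per condition no test was possible.

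The 6 highest log-folds among the 63 members found in at least 10% of the wells of a library belonged to *Olfr432*, *Olfr855*, *Olfr1339*, *Olfr1425*, *Olfr410* and *Olfr107*, at 1.19 to 1.76. *Olfr855*, on chromosome 9 from 19582617 to 19586030, had 0 uninjected counts and 71 (55.5 to 89.6) in 22 GSK-J4-treated wells. Its share was at least 126-fold higher, taking 3 counts per library as the floor of a count of 0, and 50 of the 71 counts lay in well C12. *Olfr432*, on chromosome 1 from 174049205 to 174054752, was at 0 in the uninjected library and at 44 counts (32.0 to 59.1) in the GSK-J4-treated one, at least 78.3-fold higher, with 22 in well D02, and its exons overlap those of *Olfr431-ps1*. Its log-fold of 1.76 was 0.38 after thinning to 867 counts, which also left out D02 with its 828 counts, and 0.50 without its 2 leading wells. *Olfr1425* had 3 and 79 counts with 52 in H11, *Olfr1339* 4 and 50 with 28 in D01, and *Olfr107* 7 and 35 with 20 in A05. In all of these but *Olfr410* at least 50% of the GSK-J4-treated counts thus came from 1 well, and none of these 5 wells was matched to an uninjected pair.

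The 6 lowest log-folds by the same limit lay between -0.34 and -0.20. *Olfr398* had 46 (33.7 to 61.4) and 3 (0.619 to 8.77) counts, *Olfr1110* 13 and 2, *Olfr549* 17 and 2, *Olfr984* 77 and 3, *Olfr1222* 403 and 13, and *Olfr1211* 63 and 14. The log-fold of *Olfr1211* was -0.20 as a mean over wells but 0.07 for counts summed per library and 0.04 over plate columns 1 to 6, so its direction depended on the setting. Of the 77 uninjected counts of *Olfr984*, 52 lay in well G02, the well with the most *Olfr66* counts, and its partner G08 held no more than 2. The log-fold of *Olfr1222* was -0.31 over all wells and 0.09 over plate columns 1 to 6, and that of *Olfr66* was 0.44 over all wells, -0.34 over columns 1 to 6 and -0.53 with median-ratio size factors. For *Olfr845* it was -0.04 over all wells, 0.47 for counts summed per library, 0.27 over columns 1 to 6 and -0.96 over columns 7 to 12. For *Olfr111* it was 0.99. Of the members, 28 had no uninjected count and 2 to 71 counts in the GSK-J4-treated library. Another 28 had no GSK-J4-treated count and 3 to 34 in the uninjected one, led by *Olfr890* with 34, at least 2.12-fold lower. The share of all genes counted in only 1 library is not given here, so these numbers are not read as a trait of the family.

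Across members, the counts of both libraries were weakly related (Spearman's rho 0.15, Pearson's r of log2 counts plus 1 0.37, over 300 genes that share the libraries, where the rule admits only genes with at least 3 wells in all). The counts of a member varied little with its exonic length (rho 0.068 in the uninjected and 0.045 in the GSK-J4-treated library), with its longest run of A (0.065 and -0.011) or with the share of its 45-base stretches found in other genes (-0.044 and 0.00068). That share had a median of 3.32% over the members and a highest value of 48.2%, and 52 members had none. Exons of 14 members overlapped those of another gene, so that these counts are uncertain. The members had a median exonic length of 3782 bases, the 131 other *Olfr* rows 3554, and the 703 protein-coding *Olfr* genes without a row 2596.

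The other gene families listed for comparison were counted too. The 57 *Vmn1r* rows, vomeronasal receptors, had 390 and 256 counts (0.0350% and 0.122%, a ratio of 3.49), and the 22 *Vmn2r* rows 78 and 53 (ratio 3.61). The 2 *Tas2r* rows, bitter taste receptors, had 5 and 6 counts. The 2 *Taar* rows, trace amine-associated receptors, had 1003 and 243 counts (ratio 1.29), nearly all on *Taar4* with 1001 and 240. The 9 *Krtap* rows, keratin-associated proteins, had 925 and 201 (ratio 1.16) with 753 and 184 on *Krtap26-1*, and the 6 *Defb* rows, beta-defensins, 14 and 30. All *Olfr* rows stood at a ratio of 2.23. A few rows thus held most counts of a family in *Taar* and *Krtap* as well.

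Of the 28 genes of olfactory signalling, 26 had a row, 24 had a count in the uninjected and 20 in the GSK-J4-treated library, with 0.187% and 0.259% of all counts. *Ric8b*, a chaperone of the olfactory G protein, had 1394 and 408 of these 2082 and 540 counts, in 74 and 52 wells. The G protein subunit *Gnal* had 5 and 0 counts, the cyclase *Adcy3* 92 in 16 wells and 13 in 5 wells, and the channel subunits *Cnga2* 1 and 0, *Cnga4* 16 and 3 and *Cngb1* 67 and 11. *Cngb1* also belongs to the rod channel. The receptor transport genes *Rtp1* and *Rtp2* had 5 and 2 counts in the uninjected and 2 and 0 in the GSK-J4-treated library. Among 22 genes that passed the filter, *Ebf3* (0.67) and *Ebf1* (0.46) had a log-fold above 0.3, and *Ncam1* (-0.98) and *Gnb1* (-0.85), neither of which is particular to olfactory neurons, had one below -0.3. Of the olfactory receptors known for roles outside the nose, *Olfr16* had 40 uninjected counts (28.6 to 54.5) over 20 wells and 11 GSK-J4-treated counts (5.49 to 19.7) over 9 wells. *Olfr544* had 1 and 2 counts and *Olfr1393* 3 and 0, while *Olfr78* and *Olfr558* had no row in the count table.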

How the data were processed

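Single GFP-positive cells of 1 plate per condition were sequenced. The authors deposited counts as whole numbers per gene and well, without normalization, made by reverse transcription with well-specific barcodes and a UMI, alignment in the CLC Genomics Workbench, removal of PCR duplicates and counting with featureCounts. The submitters' notes and the methods name the build GRCh38, a human number, and the coordinates given were taken from GENCODE vM21 (GRCm38), used for annotation only. The authors' filter was applied again (genes in 3 or more wells, wells with 200 genes or more and up to 5% of mitochondrial counts). It removed 3 uninjected and 2 GSK-J4-treated wells. The batch correction of the methods was not applied, no doublet caller was run, and no deposited well was unassigned. The labels give PN24 for both libraries, although the GSK-J4-treated cells are named adult in the table. Sums have exact Poisson and shares exact binomial intervals (95%), which cover counting error only. With 1 library per condition no test was run.

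The log-fold used a scale of 10000 and a pseudocount of 1. It was tested on simulated counts of 15947 genes with 200 changed genes for the comparison of GSK-J4-treated with uninjected wells, and 197 had the right direction. The changed genes were drawn from those above 1 count per 10000 over both libraries, a level that most members did not reach. The simulated counts had Poisson spread, without counts that pile up in 1 well. The simulation therefore does not cover the log-folds of sparse members or of those led by 1 well. Wells were thinned to 867 counts as an alternative, without 1 uninjected well and 14 GSK-J4-treated wells that were shallower. Other alternatives were summed libraries, median-ratio size factors, TMM factors (edgeR 4.0.16), a pseudocount of 0.1, both plate sides, all deposited wells, all *Olfr* rows, members that overlap no other gene, entries capped at 1 and leaving out the most counted member. Summing partner wells and leaving out the 2 leading wells of each member were chosen after seeing the data, as was the matching of wells. Genes were named by a rule: the 10 members with the most counts, the 6 in the most wells of each library, and the 6 highest and 6 lowest log-folds among members in at least 10% of the wells of a library, with those of the 2 fixed lists. Other genes named were chosen after their values were seen. The members and lists were chosen with earlier results of these data known. Python 3.11.15, numpy 2.4.6, pandas 2.3.3 and scipy 1.17.1 were used.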

Additional observations from a re-analysis of the deposited data

How the results depend on the processing

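The member share kept its order, higher in the GSK-J4-treated library, under all 10 alternatives tried. Size factors were not among these 10. The TMM factors were 0.747 for the uninjected and 1.34 for the GSK-J4-treated library. They gave effective sizes of 831900 and 279163 counts, in place of totals of 1113424 and 208578. Against these sizes the GSK-J4-treated excess in member share is smaller than 2.19-fold. Its size under such factors was not computed. The uninjected share was 0.564% as a mean over wells, and the GSK-J4-treated share was 1.33% after thinning and 1.32% over all *Olfr* rows. For uninjected share, GSK-J4-treated share and ratio the values were 0.376%, 1.01% and 2.69 over members that overlap no other gene, which leaves out *Olfr66*, then 0.404%, 1.09% and 2.69 without the most counted member, 0.909%, 1.61% and 1.77 with entries capped at 1, and 0.221%, 0.457% and 2.06 without the 2 leading wells of each member. The count of members above 0.3 was 29 for counts summed per library (9.67%, beside 9.92% of all genes), 14 under both median-ratio size factors and TMM factors (4.67%, beside 4.17% and 4.11%), 167 with a pseudocount of 0.1 (55.7%, beside 44.1%) and 21 without the 2 leading wells. The count below -0.3 was 6 with each kind of size factor (2%, beside 16.6% of all genes) and 35 with a pseudocount of 0.1 (11.7%, beside 28.2%). It was 9 after thinning (3%, beside 13.9% of all genes) and 9 over columns 7 to 12 (3%, beside 12.6%). It was 1 without the 2 leading wells (0.333%, beside 9.46%) and 1 with partner wells summed (0.333%, beside 12.1%). The median uninjected well was at 0.294% without the most counted member. Among named log-folds beyond 0.3, signs turned for *Olfr66* (-0.53 with median-ratio and -0.54 with TMM factors, -0.34 over columns 1 to 6), *Olfr1222* (0.090 over columns 1 to 6) and *Olfr322* (-0.20 with both factors), and the cause was not tested. Of 231 log-folds of the 21 named members under alternatives, 17 had the opposite sign, in 8 members. These are the 6 above and 11 of members within 0.3 of 0 over all wells: *Olfr845* (0.47 summed, 0.23 thinned, 0.27 over columns 1 to 6, 0.04 with partners summed), *Olfr145* (-0.12 with both factors, -0.09 thinned), *Olfr1211* (0.07 summed, 0.04 over columns 1 to 6), *Olfr984* (0.02 over columns 7 to 12) and *Olfr996* (0.01 over columns 1 to 6). No paired analysis was possible because each condition had 1 library. Depth limits the genes: 101 uninjected and 160 GSK-J4-treated members had 1 to 3 counts.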

Other observations

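Other genes led in the same wells as the members. Of 913 genes other than *Olfr* read for the matches, the uninjected pair C06 and C12 had 95 that also led in GSK-J4-treated well D11. C06 and C12 were the deepest uninjected wells, and D11 was the deepest GSK-J4-treated well, with 15371 counts. The pair H06 and H12 had 84 genes that led in E07. E07 was also the well of 5 genes of the pair E03 and E09, the only GSK-J4-treated well matched to 2 pairs. The 29 matched wells held 51.5% of the counts of the GSK-J4-treated library and 61.8% of its member counts.

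In 15 uninjected and 8 GSK-J4-treated wells a single member held over 50% of the member counts. The median member share was 0.729% and 2.75% in these wells and 0.321% and 0.875% in the others. The wells left out by the filter had member shares of 0.133% to 0.327% in the uninjected and 1.07% to 1.21% in the GSK-J4-treated library.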
